A study of Homo sapiens with 21 samples.

Results

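The aldo-keto reductases (AKRs) were followed across 21 xenograft tumors grown from A549-Luc2 cells, a luciferase-carrying derivative of the human lung adenocarcinoma line A549. The members were 9 genes picked by symbol in the raw gene counts: AKR1A1, AKR1B1, AKR1B10, AKR1B15, AKR1C1, AKR1C2, AKR1C3, AKR7A2 and AKR7A3. The table held 60651 genes, 30 of them with an AKR symbol, and all 9 members passed the filter on low counts that left 16990 genes over the 21 libraries. The cells had been placed under the skin of the flank of female athymic nu/nu mice, 6 to 8 weeks old, which lack mature T cells, and mice were assigned at random to 3 groups of 10. The control group received only the corn oil-based vehicle, and the other groups received the oxysterol derivatives Oxy186 or Oxy210 in that vehicle at 50 mg/kg by mouth every day. RNA was sequenced from 7 tumors of each group, numbered r1 to r7. Every tumor came from 1 cell line, and only reads assigned to human genes were counted. The values are therefore taken to describe the human cells of each tumor, but mouse reads assigned to human genes were not measured.

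AKRs reduce the carbonyl group of aldehydes and ketones to an alcohol with NADPH as cofactor, and their substrates include sugars, lipid-derived aldehydes, retinal, steroids and prostaglandins. Many of them are targets of NRF2 (encoded by NFE2L2), a transcription factor that binds the antioxidant response element and is held in check by KEAP1, which marks it for degradation. A549 is known for a defective KEAP1 and for a constantly active NRF2 program, in which AKR1B10 and the AKR1C enzymes are among the most abundant transcripts.

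Depth was alike, with 13818998 to 17865119 counts in each control tumor, 14008787 to 15776682 in each Oxy186-treated tumor and 13787493 to 15758662 in each Oxy210-treated tumor. All 6 epithelial markers checked (EPCAM, CDH1, KRT7, KRT8, KRT18 and KRT19) were above 0 in every library, and 8 of 12 markers of blood, vessel and stromal cells, PTPRC, CD68, CD3E, VWF, COL1A2, COL3A1, PDGFRB and HBB, stayed under 10 counts in every library. The summed level of those 12 markers was 115 to 229 CPM (counts scaled to library size) in control tumors, 102 to 259 CPM after Oxy186 and 78.2 to 158 CPM after Oxy210, carried mainly by LUM and COL1A1. The libraries differed in how the level of a gene depended on the GC content of its exons. This GC slope, in log2 units for 10 percentage points of GC, lay between -0.150 and 0.397 in control libraries and between -0.329 and 0.262 in those of Oxy210. In the Oxy186 group it ranged from -0.511 to -0.180 in r1 to r4 and from 0.0788 to 0.491 in r5 to r7.

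The members sit in 4 places in the genome (GRCh38). AKR1C1 (chr10:4963253-4983283, plus strand), AKR1C2 (chr10:4987775-5018031, minus strand) and AKR1C3 (chr10:5035354-5107686, plus strand) are neighbors on chromosome 10. AKR1B1 (chr7:134442356-134459284, minus strand), AKR1B10 (chr7:134527567-134541412, plus strand) and AKR1B15 (chr7:134549110-134579875, plus strand) are neighbors on chromosome 7. AKR7A3 (chr1:19282573-19288770, minus strand) and AKR7A2 (chr1:19303965-19312144, minus strand) lie side by side on chromosome 1, and AKR1A1 (chr1:45550543-45570049, plus strand) lies apart on the same chromosome. No exon of a member overlapped an exon of another annotated gene. Exon GC content was lowest in the AKR1C genes, 41.5% in AKR1C1, 42.1% in AKR1C2 and 43.3% in AKR1C3, intermediate in AKR1B15 (46.6%), AKR1B10 (48.0%), AKR1B1 (53.8%) and AKR1A1 (54.3%), and highest in AKR7A2 (60.0%) and AKR7A3 (60.0%).

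The AKR1C enzymes are so alike that reads do not always tell them apart, and only uniquely mapped reads were counted. AKR1C1 and AKR1C2 shared 953 of 972 coding bases (98.0%), AKR1C1 and AKR1C3 91.5%, AKR1B10 and AKR1B15 92.6%, and AKR7A2 and AKR7A3 91.8% of their aligned coding bases. The longest coding run without a difference between AKR1C1 and AKR1C2 was 189 bases. The coding stretch below, bases 43 to 162 of the coding sequence counted from the start codon, is the 120 bases in which AKR1C1 and AKR1C2 differ most often, and capitals mark bases that differ from AKR1C1.
AKR1C1: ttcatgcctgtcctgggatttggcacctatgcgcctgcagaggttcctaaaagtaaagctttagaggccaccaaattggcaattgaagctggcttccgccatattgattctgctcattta
AKR1C2: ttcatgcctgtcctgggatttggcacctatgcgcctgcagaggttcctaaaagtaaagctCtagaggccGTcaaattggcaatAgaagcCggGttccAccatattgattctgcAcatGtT
AKR1C3: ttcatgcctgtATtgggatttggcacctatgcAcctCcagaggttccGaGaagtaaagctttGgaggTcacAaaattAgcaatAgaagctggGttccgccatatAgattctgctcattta
AKR1C2 differed from AKR1C1 at 10 bases of this stretch and at 19 of the whole coding sequence, and AKR1C3 at 13 and 83. Over whole transcripts, 27.8% of the 100-base windows of AKR1C2, 15.1% of those of AKR7A3, 12.6% of those of AKR1C1 and 7.82% of those of AKR1C3 also occurred in a transcript of another gene. The shared windows of AKR7A3 lay in AKR7L, and 4 of them also in AKR7A2. The figure was 1.97% for AKR1B10, 1.10% for AKR1B15 and 0.397% for AKR7A2, and no window of AKR1A1 or AKR1B1 was shared. Counts of the AKR1C genes and of AKR7A3 are therefore uncertain to the extent that reads from shared stretches were dropped.

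AKR1C1, AKR1C2 and AKR1C3 varied together across tumors, and their upstream sequences are shown for that reason. The RefSeq promoter table (GRCh38.p14) held 10 promoters of 7 members, with AKR1B10 and AKR1B15 not in it. The 250 bases before the RefSeq start lie at chr10:4963165-4963414 (plus strand) for AKR1C1, chr10:5003858-5004107 (minus strand) for AKR1C2 and chr10:5048531-5048780 (plus strand) for AKR1C3, the upstream one of its 2 promoters in the table. These starts differ from the outer ends of the GENCODE genes given above, which include other transcripts, so that all 250 bases of AKR1C2 and of AKR1C3 and 162 of those of AKR1C1 fall inside the GENCODE gene. Shown 5′ to 3′ are the first bases of these windows. For AKR1C1 (chr10:4963165-4963252) and AKR1C2 (chr10:5004024-5004107) they end before the first annotated exon base inside the window. For AKR1C3 (chr10:5048531-5048622) the matching stretch is shown. The GENCODE genes of AKR1C2 and AKR1C3 begin further upstream, so their stretches do not lie before all of their exons. Capitals mark bases that differ from AKR1C1 in the aligned part.
AKR1C1: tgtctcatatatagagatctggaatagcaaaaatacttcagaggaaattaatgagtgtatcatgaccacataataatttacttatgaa
AKR1C2: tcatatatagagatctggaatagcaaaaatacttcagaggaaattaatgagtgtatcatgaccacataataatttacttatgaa
AKR1C3: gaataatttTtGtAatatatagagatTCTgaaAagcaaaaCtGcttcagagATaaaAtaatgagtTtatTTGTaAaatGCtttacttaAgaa
Over the whole 250 bases AKR1C2 matched AKR1C1 at 245 of 246 aligned bases (99.6%), and AKR1C3 at 183 of 241 (75.9%). The core of the antioxidant response element, TGACNNNGC on either strand, was searched in the 250 bases before the start and occurred in 3830 of 35116 promoters in the table (10.9%). Of the 7 members with a promoter, AKR7A2 held it, with 3 matches, shown in capitals in the stretch chr1:19312203-19312343 (minus strand).
AKR7A2: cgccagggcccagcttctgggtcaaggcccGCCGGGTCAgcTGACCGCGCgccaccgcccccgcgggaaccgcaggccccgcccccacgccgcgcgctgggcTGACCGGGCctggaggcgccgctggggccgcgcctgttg
A match describes these letters and not a bound site, and the other 6 members had no such letters in this window.

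AKR1B10, which reduces retinal and lipid-derived aldehydes, had the highest level per length of the family in every group. Levels between genes are compared here in RPKM, reads per kilobase of all exon bases of the gene, scaled to library size. In control tumors AKR1B10 ranged from 841 to 1793 RPKM with a median of 1374, which placed it at rank 21 of 16990 genes by mean level over all tumors. AKR1C2 followed with a median of 468 RPKM (344 to 677; rank 61) and AKR1C3 with 396 RPKM (300 to 579; rank 74). AKR1C2 is known for inactivating dihydrotestosterone, and AKR1C3 for forming testosterone and prostaglandin F.
AKR1B1, the aldose reductase of the polyol pathway, had a control median of 76.9 RPKM (72.2 to 122; rank 386), and AKR1C1, which inactivates progesterone, 72.2 RPKM (46.8 to 101; rank 422). The widely expressed aldehyde reductase AKR1A1 had 31.9 RPKM (27.8 to 40.7; rank 1174), and AKR7A2, which reduces succinic semialdehyde and the dialdehyde of aflatoxin, 17.3 RPKM (12.5 to 24.5; rank 2605). AKR1B15, the close relative of AKR1B10, had 2.88 RPKM (2.36 to 3.86; rank 8762), and AKR7A3, the other aflatoxin aldehyde reductase, 1.89 RPKM (0.718 to 3.18; rank 11805). In control tumors the ranges of neighbors in this order overlapped between AKR1C2 and AKR1C3, between AKR1B1 and AKR1C1 and between AKR1B15 and AKR7A3, and were apart for the other 5 neighbors. In treated tumors AKR1C1 came before AKR1B1, again with overlapping ranges.

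**Figure D1:**
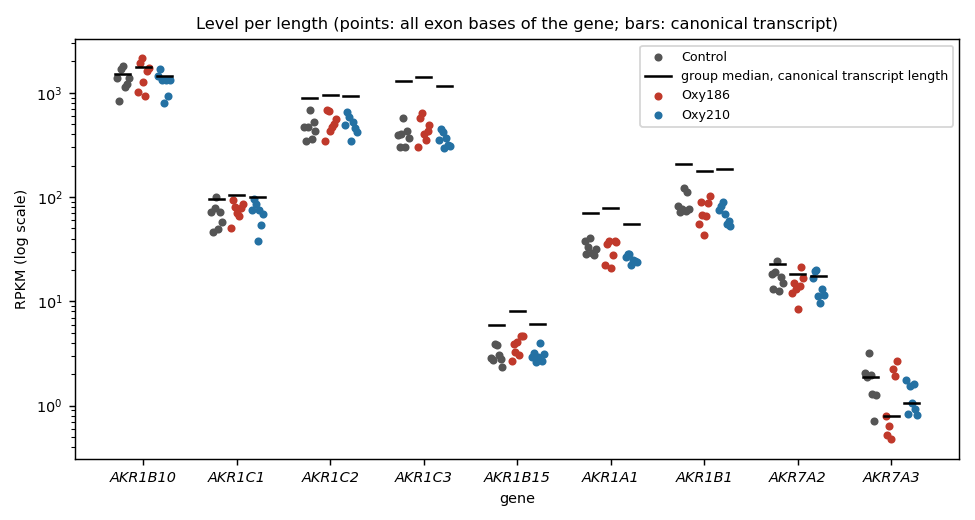
Level per length of the 9 members (vertical axis, RPKM, log scale; each point is 1 tumor, colored by group), with bars for the group median when the length of the canonical transcript is used. AKR1B10 was highest by all exon bases, AKR7A3 lowest, and the ranges of the 3 groups overlapped for every gene.

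The order depended on the length used. AKR1C1 was divided by 8765 exon bases and AKR1B1 by 3654, and their canonical transcripts hold 6543 and 1361 bases. By mean CPM, without division by length, AKR1C1 ranked 172 and AKR1B1 450 of 16990 genes. With the length of the canonical transcript, chosen after the data were seen, the control medians were 1505 RPKM for AKR1B10, 1307 for AKR1C3 and 885 for AKR1C2, with overlapping ranges for neighbors, followed by 206 for AKR1B1 and 96.7 for AKR1C1. Together the 9 genes took 0.570% to 0.975% of all counts in control tumors (median 0.758%), 0.635% to 1.07% in Oxy186-treated tumors (median 0.833%) and 0.567% to 1.00% in Oxy210-treated tumors (median 0.838%). AKR1C2 and AKR1B10 took the largest shares, with control medians of 0.266% and 0.223%. Depth behind the low members was limited, with 112 to 228 counts for AKR1B15 in every library of the series and 9 to 68 for AKR7A3.

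The first question was whether Oxy186 treatment changed the family in tumors. No member passed an adjusted p of 0.05 in all 7 Oxy186-treated tumors against control in edgeR's quasi-likelihood test, and neither did any other of the 16291 genes tested (0%). By the unadjusted p, 632 genes (3.88%) and 0 members were under 0.05, and DESeq2 and limma voom each called 0 genes. The members' log2 fold changes ranged from -0.42 to 0.29 with a median of 0.14, beside a median of 0.02 over all genes tested. With GC offsets the medians were 0.0056 and -0.046.

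AKR1B10 ranged from 10.54 through a median of 11.25 to 11.63 log2 CPM in control tumors and from 10.70 through 11.49 to 11.89 log2 CPM in Oxy186-treated tumors. The groups overlapped, with 2 Oxy186-treated tumors above the highest control, and the log2 fold change was 0.18 (SE 0.20, adjusted p = 0.849). AKR1C1 ranged from 8.68 through 9.31 to 9.78 log2 CPM in controls and from 8.80 through 9.42 to 9.68 log2 CPM after Oxy186, with every treated tumor inside the control range. AKR1C2 had 11.03, 11.47 and 12.01 log2 CPM (lowest, median, highest) in controls and 11.04, 11.57 and 12.03 after Oxy186. AKR1C3 had 10.20, 10.60 and 11.14 log2 CPM in controls and 10.20, 10.72 and 11.29 after Oxy186. For AKR1C2 and AKR1C3 1 treated tumor each lay above the control range. The 95% intervals of the log2 fold change were -0.22 to 0.50 for AKR1C1, -0.21 to 0.54 for AKR1C2 and -0.17 to 0.59 for AKR1C3, which as folds reach at most 1.42, 1.45 and 1.50.

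AKR1B15 had 3.01, 3.29 and 3.71 log2 CPM in controls and 3.20, 3.74 and 3.97 log2 CPM after Oxy186. It had the largest positive difference of the family, a log2 fold change of 0.29 (SE 0.16, unadjusted p = 0.0869, adjusted p = 0.836), with 4 of 7 treated tumors above the control range. AKR1B1 had 8.04, 8.14 and 8.80 log2 CPM in controls and 7.31, 7.94 and 8.56 after Oxy186, with 4 of 7 treated tumors below the control range (log2 fold change -0.26, SE 0.19, adjusted p = 0.836). AKR1A1 had 6.44, 6.64 and 6.99 log2 CPM in controls and 6.04, 6.78 and 6.90 after Oxy186, with 3 treated tumors below the control range and a log2 fold change of -0.06. AKR7A2 had 4.48, 4.95 and 5.45 log2 CPM in controls and 3.92, 4.64 and 5.24 after Oxy186. For AKR7A2 the log2 fold change was -0.25 (SE 0.18), with 2 treated tumors below the control range. AKR7A3 spread most, with 0.01, 1.28 and 1.997 log2 CPM in controls and -0.50, 0.14 and 1.75 after Oxy186 (log2 fold change -0.42, 95% interval -1.28 to 0.44).

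**Figure D2:**
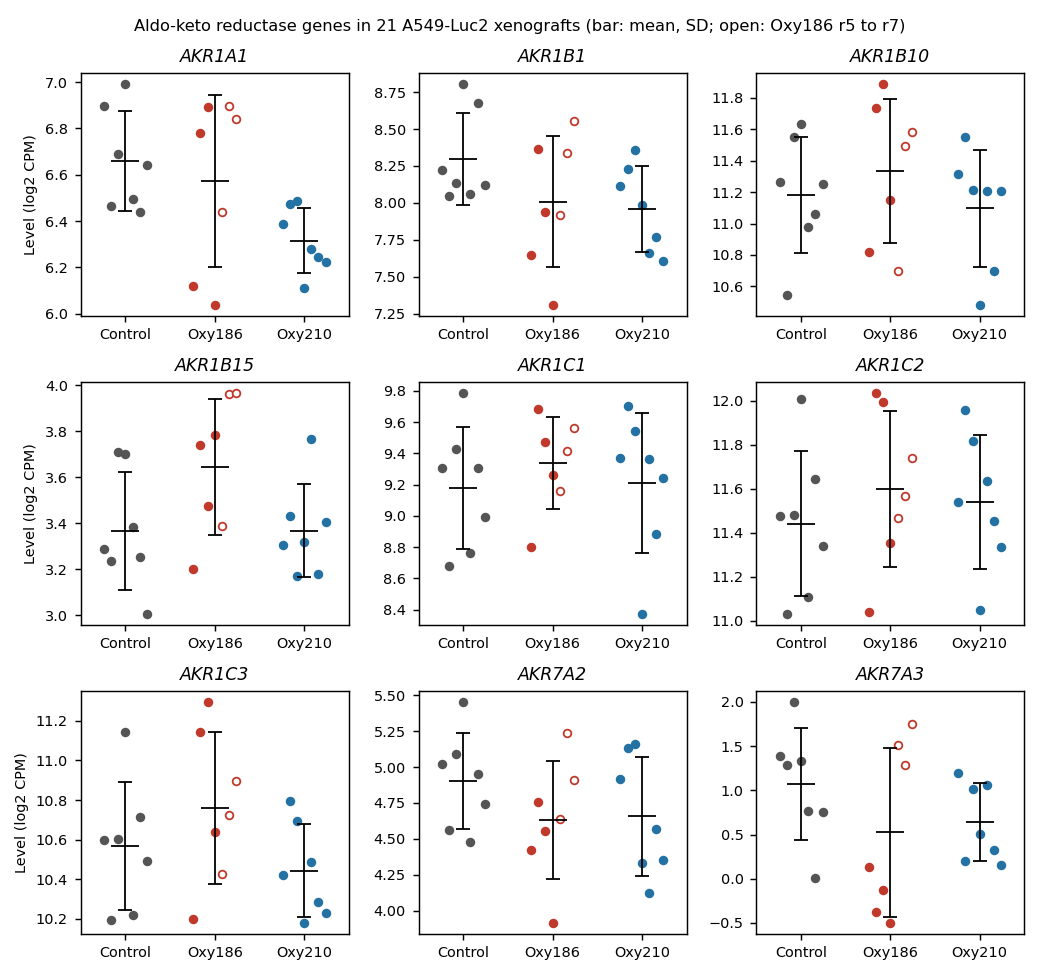
Level of each member (vertical axis, log2 CPM) in every tumor of the control, Oxy186 and Oxy210 groups, with mean and SD as bars; open points are Oxy186 r5 to r7. The groups overlapped for every member, and the Oxy186 points of AKR7A3 lay in a low cluster (r1 to r4, -0.50 to 0.14) and a high cluster (r5 to r7, 1.29 to 1.75).

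Oxy210, the related oxysterol derivative, was compared with the same 7 control tumors. No member and no other of the 16396 genes tested passed the adjusted p (0%). DESeq2 called 21 genes higher and 75 lower, none of them a member, and limma voom called 0. Of the members, 2 had an unadjusted p under 0.05, against 2302 of all genes (14%). AKR1A1 had 6.11, 6.28 and 6.49 log2 CPM (lowest, median, highest) after Oxy210 against 6.44, 6.64 and 6.99 in controls, and 5 of 7 Oxy210-treated tumors lay below the lowest control. Its log2 fold change was -0.33 (SE 0.10, 95% interval -0.55 to -0.12, unadjusted p = 0.00359, adjusted p = 0.241 by edgeR). AKR1B1 had 7.61, 7.99 and 8.36 log2 CPM after Oxy210, with 4 of 7 tumors below the control range and a log2 fold change of -0.33 (SE 0.14, adjusted p = 0.331).

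The most abundant members overlapped the control range after Oxy210. AKR1B10 had 10.48, 11.21 and 11.55 log2 CPM after Oxy210 (log2 fold change -0.07, 95% interval -0.43 to 0.29). AKR1C2 had 11.05, 11.54 and 11.96 log2 CPM (log2 fold change 0.11, 95% interval -0.21 to 0.43), with every tumor inside the control range. AKR1C1 had 8.37, 9.36 and 9.70 log2 CPM and AKR1C3 10.18, 10.42 and 10.80, with 1 tumor each below the control range. AKR1B15 differed least, with 3.17, 3.32 and 3.77 log2 CPM and a log2 fold change of 0.02 (SE 0.14). AKR7A2 (4.13, 4.57 and 5.16 log2 CPM) had 3 tumors below the control range and AKR7A3 (0.16, 0.51 and 1.19 log2 CPM) none, with log2 fold changes of -0.21 (SE 0.17) and -0.51 (SE 0.29). The members' median log2 fold change was -0.12, beside 0.01 over all genes tested.

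Oxy186 and Oxy210 were given at the same dose, so their tumors were also compared directly, 1 pair of compounds in 9 genes. No member and no other of 16361 genes passed the adjusted p (0%), with 664 genes (4.06%) and 0 members at an unadjusted p under 0.05. DESeq2 called 3 genes, none of them a member, and limma voom called 0. AKR1C3 had the largest difference, 0.34 higher on the log2 scale after Oxy186 (95% interval -0.02 to 0.69, unadjusted p = 0.061), with 3 of 7 Oxy186-treated tumors above the highest Oxy210-treated tumor. AKR1A1 was next with 0.28 (95% interval -0.03 to 0.59), followed by AKR1B15 with 0.28 (-0.06 to 0.61) and AKR1B10 with 0.25 (-0.18 to 0.68). The 95% interval was -0.30 to 0.47 for AKR1C1, -0.30 to 0.42 for AKR1C2, -0.31 to 0.45 for AKR1B1, -0.45 to 0.39 for AKR7A2 and -0.74 to 0.92 for AKR7A3. These intervals include 0 and do not show that the compounds act alike. With GC offsets the interval of AKR1A1 was 0.0025 to 0.53 (edgeR adjusted p = 0.669). The adjusted p was 0.9996 for each of the 9 genes.

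**Figure D3:**
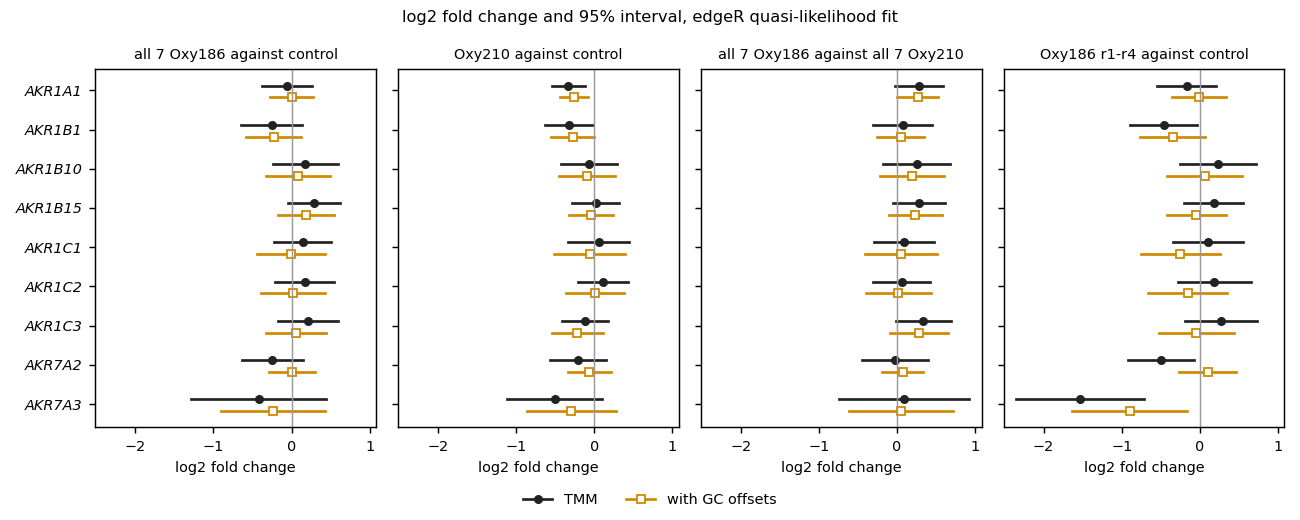
The log2 fold change (horizontal axis) of each member with its 95% interval in the 4 comparisons, by the edgeR fit after TMM normalization (filled circles) and with GC offsets for each library (open squares). After TMM alone the interval lay away from 0 for AKR1A1 and AKR1B1 in Oxy210-treated tumors, and for AKR1B1, AKR7A2 and AKR7A3 in Oxy186 r1 to r4, of which AKR7A3 passed the adjusted p. With GC offsets intervals excluded 0 for AKR1A1 and AKR1B1 after Oxy210, AKR1A1 between the compounds and AKR7A3 in r1 to r4. None of these passed the adjusted p.

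The study set Oxy186-treated tumors r1 to r4 against the control group after these 4 had stood apart in a principal component plot of the same libraries. A difference between them and control is therefore not independent evidence of a drug effect. In this comparison 3323 of 16852 genes passed the adjusted p (19.7%), 2526 of them lower (15%) and 797 higher (4.73%), and 1 of 9 members did. That member was AKR7A3. Its counts were 16, 9, 11 and 9 in r1 to r4, and its level was 0.14, -0.38, -0.13 and -0.50 log2 CPM, against 1.51, 1.29 and 1.75 log2 CPM in r5 to r7. In r1 to r4 the level was the lowest of the series in 3 tumors, below the lowest control (0.01 log2 CPM). The mean was -0.22 ± 0.28 log2 CPM (SD, n = 4) against 1.08 ± 0.63 (SD, n = 7) in control, a fold of 0.346 (95% interval 0.196 to 0.610; log2 fold change -1.53, SE 0.39, edgeR adjusted p = 0.0125). Without r4 the log2 fold change was -1.38 and the adjusted p 0.0515.

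The GC slope moved with this result. The slope was fitted to gene levels in these same libraries, so genes rich in GC can be expected to follow it. The r of other genes of like GC content was not computed. The p values for r and rho here therefore do not single out these members. Over the 21 tumors the level of AKR7A3 went with the GC slope of its library with r = 0.728 (rho = 0.756, permutation p = 0.00026 and 0.00011, adjusted p = 0.00121 for r), and AKR7A2, equally rich in GC, with r = 0.781 (rho = 0.783, permutation p = 4e-05 and 7e-05). Without the 2 libraries of most extreme slope r was 0.625 for AKR7A3 and 0.769 for AKR7A2, and within the groups r for AKR7A3 was 0.673 in control, 0.839 in Oxy186-treated and 0.165 in Oxy210-treated tumors. When a GC trend of each library was entered as an offset, AKR7A3 had a log2 fold change of -0.90 in r1 to r4 (adjusted p = 0.142) and did not pass, and the share of all genes called was 5.35%. GC offsets also lowered the median over all genes from 0.01 to -0.12 on the log2 scale, and relative to that median AKR7A3 stood at -0.78. The part of library composition in the low AKR7A3 counts and that of treatment cannot be told apart here, since the slopes of r1 to r4 (-0.511 to -0.180) all lay below those of the control group.

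AKR7A2 had 4.42, 4.75, 4.56 and 3.92 log2 CPM in r1 to r4, with 2 of these tumors below the lowest control (4.48), and a log2 fold change of -0.50 (SE 0.20, adjusted p = 0.0865). With GC offsets its log2 fold change was 0.10, so its direction turned. AKR1B1 had 7.65, 8.36, 7.94 and 7.31 log2 CPM, with 3 tumors below the control range and a log2 fold change of -0.46 (SE 0.20, adjusted p = 0.119). Without r2 it was -0.67 with an adjusted p of 0.0345. The AKR1C genes and AKR1B10 had log2 fold changes from 0.11 (AKR1C1) to 0.28 (AKR1C3), none with an adjusted p under 0.382. With GC offsets, and relative to the median of all genes, these were -0.13 for AKR1C1, -0.04 for AKR1C2, 0.07 for AKR1C3 and 0.18 for AKR1B10. Values within r1 to r4 were not alike, since r1 was the lowest tumor of its group for AKR1C1, AKR1C2 and AKR1C3 (8.80, 11.04 and 10.20 log2 CPM) and r2 the highest for AKR1C1 and AKR1C2 (9.68 and 12.03 log2 CPM).

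**Figure D4:**
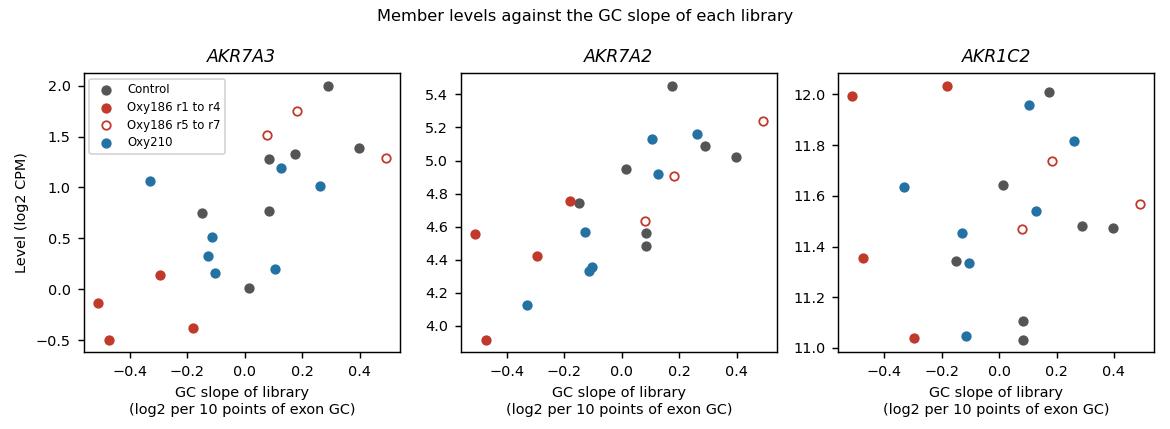
Level of AKR7A3, AKR7A2 and AKR1C2 (vertical axis, log2 CPM) against the GC slope of each library (horizontal axis, log2 units for 10 percentage points of exon GC), with a point for each of the 21 tumors. AKR7A3 and AKR7A2 went with the slope (r = 0.728 and 0.781), AKR1C2 did not (r = 0.0725), and Oxy186 r1 to r4 had slopes from -0.511 to -0.180.

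Of the regulators of the family, NFE2L2 encodes NRF2 itself. It had 6.34, 6.57 and 7.03 log2 CPM (lowest, median, highest) in controls, 7.06, 7.38, 7.35 and 7.04 log2 CPM in Oxy186 r1 to r4, and 6.36, 6.09 and 6.53 log2 CPM in r5 to r7. NFE2L2 was higher in r1 to r4 (log2 fold change 0.56, SE 0.14, edgeR adjusted p = 0.0117). In that comparison 4.73% of all genes were called higher and 15% lower. With GC offsets the adjusted p of NFE2L2 was 0.294, and 5.35% of all genes were called. Over all 7 Oxy186-treated tumors its log2 fold change was 0.26 (adjusted p = 0.836) and after Oxy210 0.12 (adjusted p = 0.675). KEAP1, the adaptor that marks NRF2 for degradation, had 5.52, 6.19 and 6.49 log2 CPM in controls and 5.42, 5.86, 5.50 and 5.17 log2 CPM in r1 to r4. KEAP1 was lower in r1 to r4 (log2 fold change -0.60, SE 0.20, edgeR adjusted p = 0.0459). Its exons hold 63.4% GC. With GC offsets its direction turned (0.34, edgeR adjusted p = 0.161), and relative to the median of all genes it stood at 0.46. The part of the GC slope in this difference was not tested. Neither regulator passed in the other comparisons, where the log2 fold changes of KEAP1 were -0.26 for Oxy186, -0.40 for Oxy210 and 0.14 for Oxy186 against Oxy210, and with GC offsets 0.16 (direction turned), -0.17 and 0.33.

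The rest of the pathway was counted on gene lists, and none of their genes passed the adjusted p in all 7 Oxy186-treated tumors against control, in Oxy210-treated tumors against control, or between the compounds. Of 30 further NRF2 targets, 29 were tested for Oxy186, with a median log2 fold change of 0.11 beside 0.02 over all genes and 2 at an unadjusted p under 0.05. For Oxy210, 28 were tested, with a median of -0.08 beside 0.01 and again 2 at an unadjusted p under 0.05. The targets with the highest level per length were the ferritin light chain FTL, the glutathione peroxidase GPX2 and thioredoxin TXN, with log2 fold changes of -0.29, 0.07 and 0.26 for Oxy186 and -0.32, -0.35 and -0.35 for Oxy210. Between the compounds TXN differed most of these, by 0.62 (SE 0.24, adjusted p = 0.9996).

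In r1 to r4 against control, 4 of 29 NRF2 targets were higher and 4 lower, 27.6% beside 19.7% of all genes, and with GC offsets 1 was higher and 2 lower, beside 5.35% of all genes. SRXN1, encoding sulfiredoxin, which repairs oxidized peroxiredoxins, had a log2 fold change of -3.52 (SE 0.40, edgeR adjusted p = 0.000475), and the ferritin heavy chain FTH1 one of -3.09 (SE 0.42, edgeR adjusted p = 0.000639). Both passed with GC offsets as well, at -3.51 and -3.19. The third that passed with GC offsets was the epoxide hydrolase EPHX1 (0.85, adjusted p = 0.00562), named after its values were seen, at 0.46 (adjusted p = 0.107) without them. SRXN1 ranged from 1.82 to 3.36 log2 CPM in controls, from -1.42 to 0.17 in r1 to r4 and from 2.91 to 4.19 in r5 to r7. FTH1 ranged from 6.65 to 9.07 log2 CPM in controls, from 4.67 to 5.73 in r1 to r4 and from 8.37 to 9.25 in r5 to r7. Their counts are uncertain, since 90.7% of the exon bases of SRXN1 overlap another gene on the same strand and 63.2% of those of FTH1 overlap BEST1 on the opposite strand. The strand setting of the counting was not given in the sources used here. Exon bases also overlapped other genes in NFE2L2 (13.6% same strand, 24.8% opposite strand). On the opposite strand they did so in SQSTM1 (22.4%), NQO1 (19.4%) and MAFK (18.1%). The glucuronosyltransferase UGT1A6 was higher (log2 fold change 1.29, edgeR adjusted p = 0.0306), a locus where 44.2% of exon bases are shared with other UGT1A genes, and did not pass with GC offsets, where its log2 fold change was 1.09 (adjusted p = 0.114).

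Of 9 NRF2 regulators, 2 were higher and 4 lower in r1 to r4 (66.7% called, beside 19.7% of all genes), and none passed with GC offsets (beside 5.35%). MAFK, a small MAF partner of NRF2, had a log2 fold change of -1.82 (edgeR adjusted p = 0.00299), and SQSTM1, the autophagy receptor that sequesters KEAP1, one of -0.68 (edgeR adjusted p = 0.00752). A list of other genes of carbonyl and polyol metabolism, not all of them reductases, gave 1 higher gene of 20 (5%). This was the carbonyl reductase CBR4 (0.42, edgeR adjusted p = 0.0193). With GC offsets CBR4 had a log2 fold change of 0.02 and did not pass, and 2 others of these 20 did, HAGH higher (0.73, adjusted p = 0.0054, from 0.12 without offsets) and DHRS1 lower (-0.44, adjusted p = 0.0394, from -0.37). HAGH and DHRS1 were named after their values were seen. Of 22 genes of steroid, prostaglandin and retinoid metabolism, 3 were higher and 2 lower (22.7%, near the share of all genes), and none with GC offsets. The prostaglandin E synthases PTGES2 (-1.20) and PTGES (-0.67) were lower and the retinal reductase RDH11 (0.42) higher. None of 6 epithelial markers and none of the 4 blood, vessel and stromal markers tested passed in r1 to r4.

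Of the wider superfamily, the file held 21 further rows with an AKR symbol, 5 of them protein coding and 16 not, and 7 passed the filter. Counts over the 21 libraries ranged from 192 to 283 for AKR1E2, from 71 to 133 for the liver-type AKR1C4, from 12 to 94 for AKR1C8P, from 8 to 57 for AKR7L and from 0 to 2 for AKR1D1, a steroid reductase of bile acid synthesis. The pseudogene AKR1B10P1 had 57 to 139 counts, beside 21063 to 53381 for AKR1B10. Of 6 tested genes outside the members, which included potassium channel beta subunits of the same fold, none passed in the 3 comparisons of labelled groups. In r1 to r4 2 were lower (33.3% called, beside 19.7% of all genes). These were KCNAB2 (-1.08, edgeR adjusted p = 0.0165) and KCNAB3 (-0.78, edgeR adjusted p = 0.0222). Neither passed with GC offsets, beside 5.35% of all genes.

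AKR1B10, AKR1C1, AKR1C2 and AKR1C3 went up and down together from tumor to tumor. Pearson's r of log2 CPM over the 21 tumors lay between 0.802 and 0.905 for their 6 pairs, among 54 relations tested. How often pairs of other genes reach such values in these libraries was not computed. AKR1C1 and AKR1C2 had r = 0.905 and rho = 0.931 (permutation p = 1e-05 for each, the smallest 100000 permutations can give, adjusted p = 0.000108), AKR1C2 and AKR1C3 r = 0.900 and rho = 0.905, and AKR1B10 and AKR1C1 r = 0.862 and rho = 0.892. The 6 values stayed between 0.820 and 0.961 with each group's mean subtracted and between 0.791 and 0.942 with the GC trend removed from each library. Leaving out the 2 tumors farthest from the median of the first gene gave r between 0.738 (AKR1B10 and AKR1C2) and 0.892 (AKR1C1 and AKR1C2). Within the groups AKR1C1 and AKR1C2 had r = 0.961 in control, 0.917 in Oxy186-treated and 0.912 in Oxy210-treated tumors. AKR1C1 and AKR1C2 share stretches of sequence, as given above, and the part of shared reads in these values was not tested. In these bulk tumors fewer cells of a type and less RNA per cell cannot be told apart.

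**Figure D5:**
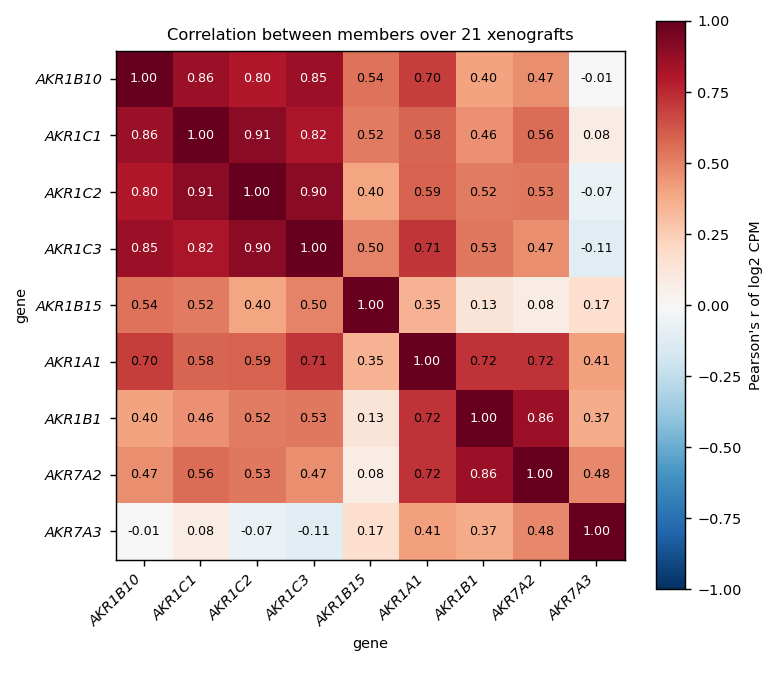
Pearson's r of log2 CPM between members over the 21 tumors, in color and as numbers, with the genes on both axes. AKR1B10 and the AKR1C genes form the block at the upper left (0.802 to 0.905), and the row of AKR7A3 holds values from -0.111 to 0.480.

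Of all 36 member pairs, 20 had an adjusted p up to 0.05 for r. The share of pairs of other genes that would pass was not computed. This count therefore does not show a trait particular to the family. AKR1B1 and AKR7A2 had r = 0.856 (rho = 0.843, permutation p = 1e-05 for each, adjusted p = 0.000108), which was 0.608 with the GC trend removed. The level of AKR1B1 itself went with the GC slope (r = 0.631, rho = 0.619, permutation p = 0.00191 and 0.00307, adjusted p = 0.00688 for r). As given above, the slope was fitted to gene levels in the same libraries, and r of other genes of like GC content was not computed. AKR7A3 passed with no other member, its r ranging from -0.111 to 0.480. The level of NFE2L2 went against that of AKR7A3 (r = -0.773, rho = -0.787, permutation p = 5e-05 for each, adjusted p = 0.0003), and with none of the other 8 members past the adjusted p (r from -0.374 to 0.351). For NFE2L2 and AKR7A3 r was -0.698 without the 2 tumors farthest from the median of NFE2L2, and within groups -0.727 in control, -0.879 in Oxy186-treated and -0.309 in Oxy210-treated tumors. NFE2L2 exons hold 42.4% GC and those of AKR7A3 60.0%, and the part of the GC slope in this relation was not tested.

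The genes whose tumor-to-tumor pattern was most like that of AKR1C1, AKR1C2 and AKR1C3 were NQO1 (r = 0.935 with the mean standardized level of these 3 genes), PIR (0.926), ERH (0.911), VDAC3 (0.906) and ZWINT (0.896), among 13604 genes over the 21 tumors. NQO1 encodes the quinone reductase that is the classical NRF2 target, and PIR encodes pirin, an iron-binding nuclear protein. With the GC trend removed the first 5 were VDAC3 (0.955), NQO1 (0.947), ERH (0.940), CYCS (0.924) and SUCLG1 (0.924), and PIR was at rank 152. The genes most like AKR1B10 were NQO1 (0.881), PGD of the pentose phosphate pathway (0.875) and GOT1 (0.866), and with the GC trend removed TXN (0.868), NQO1 (0.867) and SPP1 (0.867). These values describe likeness across tumors that share library preparation and normalization.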

How the data were processed

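RNA was measured in 21 xenograft tumors, grouped by the treatment in the sample labels. The authors made the deposited raw counts per human gene with Trimmomatic 0.39, STAR 2.7.6a on a combined human and mouse genome (GRCh38.p13 with GENCODE 37, GRCm39 with M26) and featureCounts of Subread 2.0.1, counting uniquely mapped reads; versions come from the submitters' processing notes. The authors also deposited log2 CPM of the 7 control tumors and of Oxy186 r1 to r4. These were used only for a check, in which log2 CPM recomputed from the counts differed by at most 4.97e-14 over 16852 genes. Lowest chi-square per degree of freedom between libraries of a group was 12.1 over 63 pairs, so each library was counted as 1 replicate.

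Counts were tested with edgeR 4.0.16 in R 4.3.3 (filterByExpr, TMM, quasi-likelihood fit of the groups compared), and a gene was called when its Benjamini-Hochberg adjusted p, over all genes tested, was no higher than 0.05; the study's own rule was limma voom with a fold over 2 as well. SE is the log2 fold change divided by the square root of F. GC offsets are splines (4 degrees of freedom) of log2 level on exon GC content for each library, from GENCODE 44 on GRCh38, which gave 99.8% of tested genes a GC value. DESeq2 1.42.0 and limma 3.58.1 were alternatives, and correlations used 100000 permutations (python 3.11.15, scipy 1.17.1). The labels number the replicates and name no mouse, and each replicate was taken as a separate tumor. In simulated data for 7 against 7 libraries (14588 genes) 85.3% of genes changed 2-fold and 100% of those changed 4-fold were recovered, and for 4 against 7 (14547 genes) 79.8% and 100%. False calls numbered 7 and 10. The simulated counts had the spread of the control tumors and no GC slopes, and genes with low counts were left out. Recovery with the spread and slopes of the treated groups was not tested.

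The members, the gene lists and the tests were chosen with earlier results of these data known. Named were all 9 members, NFE2L2 and KEAP1, in each list up to 3 called genes with the largest change or, with none called, the 3 with the highest level, and the 5 and 3 genes most like the AKR1C genes and AKR1B10.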

Additional observations from a re-analysis of the deposited data

How the results depend on the processing

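In the 3 comparisons of labelled groups, 0 members were called under every alternative run. In Oxy186 r1 to r4 against control, AKR7A3 was the 1 member called with DESeq2, limma voom, RLE normalization, library size alone, no filter, all 21 libraries in one fit and a fold over 2 as well. There 0 were called with at least 10 counts in every library, a filter AKR7A3 did not pass, with GC offsets, and with a replicate block plus GC offsets. Leaving out 1 library each gave 0 to 2 members, 0 without Oxy186 r4 and 2 without Oxy186 r2 (AKR1B1 added). The share of all genes called in those fits is not given here, so these counts describe no trait of the members. Over all genes, DESeq2 called 1452 higher and 2819 lower of 36420, limma voom 845 and 2449 of 16852, and RLE normalization 1006 and 2379. Library size alone called 758 and 2319, no filter 418 and 2627 of 36420, and all libraries in one fit 1323 and 2681 of 18254. The main fit called 3323 of 16852 genes (19.7%), against 902 with GC offsets. With a fold over 2 as well 36 were higher and 1370 lower, and with the replicate block plus GC offsets 11 and 168. The cause was not tested. The count of AKR7A3 (9 to 68) limits its precision.

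Some differences changed sign, the largest that of AKR7A2 in r1 to r4, from -0.50. With GC offsets AKR1C1 (-0.0077) and AKR7A2 (0.0056) did so in all 7 Oxy186-treated tumors against control, AKR1B15 (-0.042) and AKR1C1 (-0.057) in Oxy210 against control, AKR7A2 (0.072) in Oxy186 against Oxy210, and AKR1B15 (-0.047), AKR1C1 (-0.25), AKR1C2 (-0.16), AKR1C3 (-0.047) and AKR7A2 (0.099) in r1 to r4. In one fit of all libraries AKR1B15 was -0.0071 for Oxy210, and with limma voom AKR7A3 was -0.15 between the compounds. Leaving out 1 library each gave ranges across 0 for AKR1A1 (-0.12 to 0.019) in Oxy186 against control; for AKR1B10 (-0.17 to 0.0071), AKR1B15 (-0.073 to 0.076) and AKR1C1 (-0.027 to 0.17) in Oxy210 against control; for AKR1B1 (-0.021 to 0.17), AKR1C1 (-0.010 to 0.18), AKR1C2 (-0.0078 to 0.15), AKR7A2 (-0.14 to 0.069) and AKR7A3 (-0.15 to 0.24) between the compounds; and for AKR1A1 (-0.32 to 0.0047) and AKR1C1 (-0.025 to 0.25) in r1 to r4.

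For tumors with the same number the labels give no other link. Of 21 same-numbered pairs, 4 had a correlation of their deviations over 0.1 (range -0.398 to 0.329). Pairs of different number were not computed as a background, so a batch shared by number was not tested. The replicate block alone changed no call of a member. It gave -0.11 for AKR7A3 between the compounds and -0.0082 for AKR1C1 in r1 to r4. The replicate block with GC offsets gave 0.019 for AKR7A2 in Oxy186 against control, -0.032 for AKR1B15 and -0.060 for AKR1C1 in Oxy210 against control, 0.068 for AKR7A2 and -0.026 for AKR7A3 between the compounds, and in r1 to r4 -0.042 for AKR1B10, -0.18 for AKR1B15, -0.45 for AKR1C1, -0.32 for AKR1C2, -0.21 for AKR1C3 and 0.10 for AKR7A2.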
